A study of Mus musculus with 4 samples.

Results

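The glutamate, GABA and glycine receptor subunit genes were followed across the cell types of the embryonic mouse neocortex and between i4F-Nes and control embryos. They were selected by a pattern of gene symbols and comprise the ionotropic glutamate receptor genes (AMPA, kainate, delta and NMDA), the metabotropic glutamate receptor genes, the GABA-A, GABA-A rho and GABA-B receptor genes and the glycine receptor genes. The pattern matched 50 of the 32285 genes in the deposited matrices. Single-cell RNA was measured in rostral neocortex at E15.5 in 4 libraries, with 2 of each genotype. The genotypes were i4F-Nes and its littermate control, CTR. The i4F-Nes embryos carried Nestin-Cre together with i4F and ROSA-STOP-rtTA. CTR embryos carried i4F and ROSA-STOP-rtTA without Nestin-Cre. i4F is a doxycycline-inducible cassette of the reprogramming factors Pou5f1, Sox2, Klf4 and Myc, and Nestin-Cre permits its induction in neural progenitors and the cells they produce. Embryos of both genotypes were exposed to doxycycline at 0.2 mg/ml in the drinking water of the mothers between E10.5 and E14.5, or 4 days. The number of embryos behind a library is not given in the sources used here, so p-values measure the spread between libraries, which may be technical.

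Fast excitation in the cortex runs through ionotropic glutamate receptors. AMPA, kainate and NMDA receptors are tetramers, and an NMDA receptor needs the Grin1 subunit together with Grin2 or Grin3 subunits. Metabotropic glutamate receptors signal through G proteins and tune excitability and transmitter release. GABA-A receptors are chloride channels built from alpha, beta and a further subunit, usually gamma. GABA-B receptors are obligate dimers of Gabbr1, which binds GABA, and Gabbr2, which couples to G proteins. In embryonic cortex GABA and glycine depolarise many cells, and receptors for GABA and glutamate are known already in ventricular zone progenitors, before synapses form.

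The 4 matrices held 35255 barcodes and 458145772 unique molecular identifiers (UMIs), of which 26641 cells with 385263330 UMIs were kept after quality filters and removal of predicted doublets. Kept cells numbered 7498 and 6407 in i4F-Nes and 6046 and 6690 in CTR, with median UMIs per cell of 15140.5 and 11342 in i4F-Nes and 15134.5 and 11617 in CTR, and 8 to 19 kept barcodes were shared between any 2 libraries. Each cell was placed in a type by marker genes, none of them a receptor subunit, in the order radial glia, intermediate progenitor, newborn neuron, and upper-layer or deep-layer neuron, with separate gates for interneurons and rarer cells. These gates held 2569, 3024, 5145, 4843, 5366 and 782 cells in that order, and 2967 cells stayed unassigned. The labelled cell type, cortical neurons, thus covers progenitors, interneurons and microglia as well. Genes that were not used as markers followed the names. Slc1a3, the glial glutamate transporter, measured 443 to 557 CPM per library in radial glia and 12.9 to 21.0 CPM in newborn neurons, and Gad1, which makes GABA, measured 228 to 321 CPM in interneurons and at most 2.32 CPM in the other 5 types. CPM here is UMIs per 1000000 UMIs of the summed cells. Sox2, which the cassette encodes, is among the radial glia markers. The subunit genes took 961390 UMIs, 0.25% of those kept, and 31 of the 50 averaged at least 10 CPM in at least 1 of the 6 types. Libraries were made from the 3′ ends of transcripts and these values are not per length, so levels are compared between cells for 1 gene and not between genes.

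Of the 50 genes, 34 have a promoter window in the RefSeq table for GRCm38.p6, which covers 250 bases before and 50 after a start. The 250 bases before the start are shown for 5 genes that mark different moments or cells of the series below. Gria2 and Gabra2 stand for the newborn neuron. Glra2 and Grik3 stand for the deep-layer neuron and were also high in interneurons. Gria4 stands for the interneuron and for cells found almost only in i4F-Nes. The bases are printed 5′ to 3′ along the gene's own strand, and capitals mark the GC box GGGCGG or the TATA box TATAAA on either strand.
Gria2, chr3:80802836-80803085, minus strand: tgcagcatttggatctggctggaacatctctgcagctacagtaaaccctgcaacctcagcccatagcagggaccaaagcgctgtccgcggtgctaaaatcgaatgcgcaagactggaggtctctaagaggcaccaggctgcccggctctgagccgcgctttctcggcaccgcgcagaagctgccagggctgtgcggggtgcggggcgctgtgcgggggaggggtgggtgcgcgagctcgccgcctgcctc
Gabra2, chr5:71095850-71096099, minus strand: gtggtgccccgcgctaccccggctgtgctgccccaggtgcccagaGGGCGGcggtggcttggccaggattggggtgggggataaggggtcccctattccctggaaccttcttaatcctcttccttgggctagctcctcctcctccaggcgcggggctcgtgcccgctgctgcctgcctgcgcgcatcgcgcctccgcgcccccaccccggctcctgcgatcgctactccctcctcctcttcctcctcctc
Glra2, chrX:165327394-165327643, minus strand: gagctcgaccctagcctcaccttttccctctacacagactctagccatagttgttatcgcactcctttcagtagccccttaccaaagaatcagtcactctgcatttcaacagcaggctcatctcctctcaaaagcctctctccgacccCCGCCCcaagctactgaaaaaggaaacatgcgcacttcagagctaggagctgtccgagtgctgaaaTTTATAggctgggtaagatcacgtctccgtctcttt
Grik3, chr4:125490446-125490695, plus strand: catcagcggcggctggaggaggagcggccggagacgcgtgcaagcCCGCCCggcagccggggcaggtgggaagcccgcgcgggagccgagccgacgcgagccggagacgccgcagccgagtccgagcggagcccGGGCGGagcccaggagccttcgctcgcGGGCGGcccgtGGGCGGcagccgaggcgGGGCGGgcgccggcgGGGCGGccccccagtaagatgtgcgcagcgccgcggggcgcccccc
Gria4, chr9:4796235-4796484, minus strand: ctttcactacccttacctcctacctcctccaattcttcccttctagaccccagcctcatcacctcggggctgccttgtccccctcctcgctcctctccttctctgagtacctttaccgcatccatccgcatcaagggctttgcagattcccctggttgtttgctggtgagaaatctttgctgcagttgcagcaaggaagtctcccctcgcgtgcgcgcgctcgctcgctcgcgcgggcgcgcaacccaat
Grik3, with 82.0% G or C, holds 6 GC boxes, whereas the windows of Gria2 and Gria4 hold neither motif. Glra2 has a GC box and a TATA box. Searched on both strands over the 34 genes, the GC box occurred in the windows of 20, against 38.2% of all 27025 genes with a window, and TATAAA in those of 4, against 15.7%. The windows of the subunit genes had a median of 58.8% G or C, against 52.4% over all windows. The proneural E-boxes CAGATG and CAGCTG occurred in the windows of 3 and 1 of the 34 genes, against 19.2% and 18.3% of all genes. The cAMP response element TGACGTCA and the core of the RE1 silencer element occurred in none, against 2.03% and 0.0407% of all genes. A match is a description of letters in a window and not of a bound site.

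Most subunit genes that could be tested were higher in cortical neurons than in radial glia, and the 2 steps at which most became higher were entry into the newborn neuron state and its passage into layer neurons. UMIs were summed per library and type and compared in edgeR (quasi-likelihood test, library as block, Benjamini-Hochberg adjustment over 15256 genes). Of the 50 genes, 41 passed its filter on low counts. Differences below are log2 fold changes, called at an adjusted p under 0.05. In these tests the mean of upper- and deep-layer neurons is the mean of their log2 levels, not of their CPM. Against radial glia, the mean of upper- and deep-layer neurons was higher for 27 genes and lower for 8, in a comparison where 42.8% of all tested genes were higher and 39.5% lower. The median log2 difference was 2.32 over the 41 genes and 0.05 over all genes tested. Intermediate progenitors exceeded radial glia in 6 genes and were lower in 10, against 30.7% and 31.2% of all genes, and 10 were higher without i4F-Nes replicate 2. Newborn neurons exceeded intermediate progenitors in 23 and were lower in 4, against 30.7% and 31.1% of all genes. Upper-layer neurons exceeded newborn neurons in 22 genes and were lower in 3, against 25.7% and 24.6% of all genes. Deep-layer neurons exceeded newborn neurons in 26 and were lower in 4, against 31.5% and 28.9% of all genes. By mean level, 24 genes were highest in interneurons, 13 in deep-layer neurons, 6 in radial glia, 4 in upper-layer neurons and 2 in intermediate progenitors, and 26 had the same highest type in all 4 libraries.

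**Figure D1:**
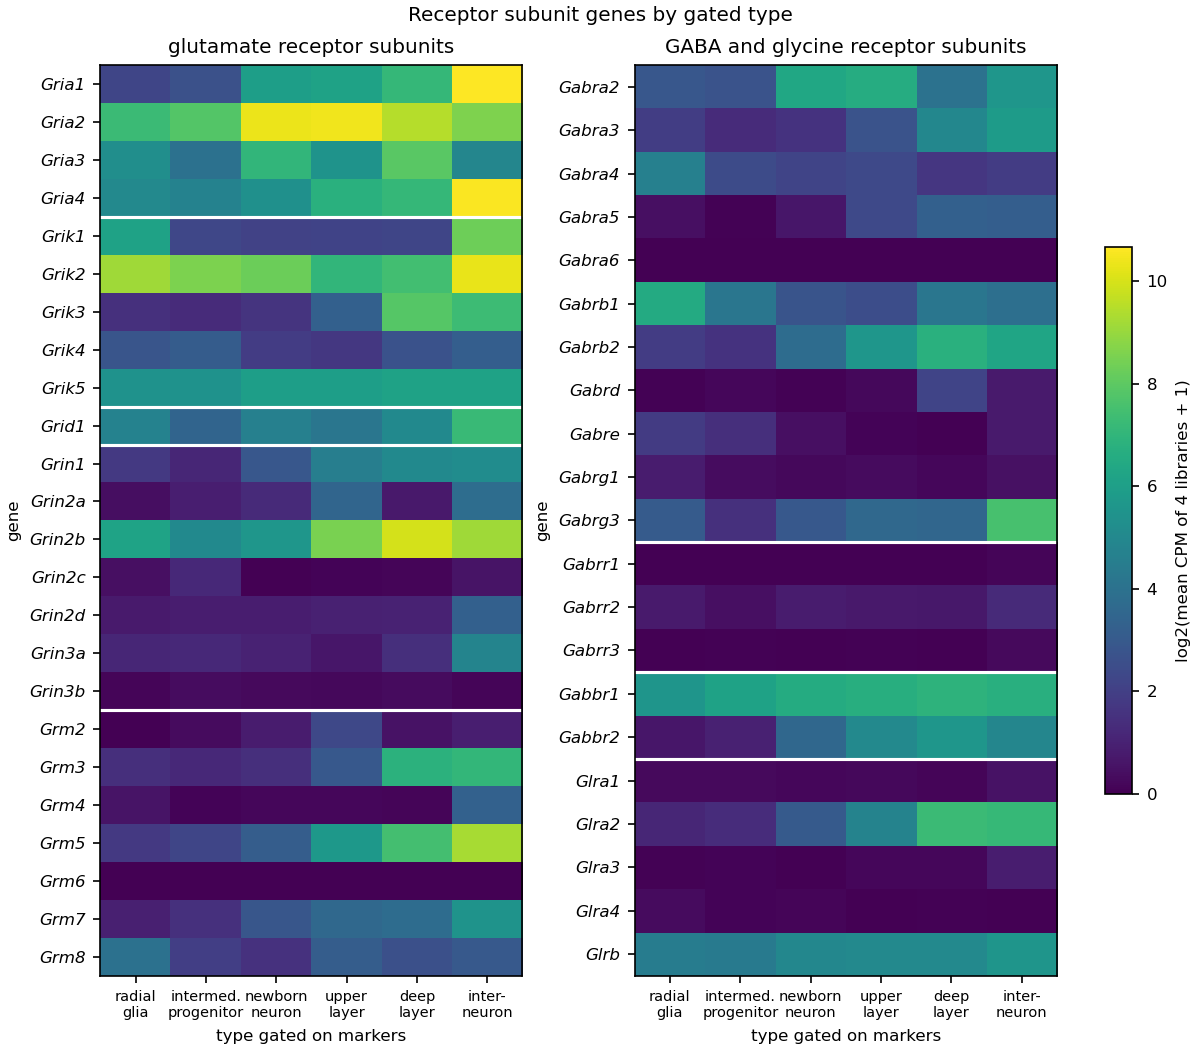
Level of subunit genes in the 6 types gated on markers, as log2 of the mean CPM of the 4 libraries plus 1, with glutamate receptor genes on the left and GABA and glycine receptor genes on the right, and white lines between families. Grik2, Grik1, Gabrb1 and Gabra4 are bright in radial glia, Gria2 and Gabra2 brighten in newborn neurons, and Grin2b, Grik3 and Glra2 are brightest in deep-layer neurons.

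A small set of subunit genes was higher in radial glia than in layer neurons. Grik2, a kainate receptor subunit that forms channels by itself, measured 700.2 and 551 CPM in i4F-Nes and 507 and 504 CPM in CTR in radial glia. In the following types its 4-library mean was 379 ± 72.6 CPM in intermediate progenitors, 311 ± 67.1 CPM in newborn neurons, 130.0 ± 53.8 CPM in upper-layer and 172 ± 68.6 CPM in deep-layer neurons (± SD, n = 4 libraries). Every library was lower in layer neurons than in radial glia, with a mean layer neuron minus radial glia difference of -1.75 ± 0.24 (SE), edgeR adjusted p = 3.61e-06. Grik1, another kainate subunit, measured 84.9 and 64.1 CPM in i4F-Nes and 53.9 and 72.2 CPM in CTR in radial glia. It fell at the first step, to 1.60 to 7.08 CPM per library in intermediate progenitors, a difference of -4.36 ± 0.42 (SE), edgeR adjusted p = 1.68e-07. The 2 kainate genes thus left radial glia differently, Grik1 at the first step and Grik2 with called steps only at layer neurons. The intermediate progenitor step of Grik2 did not pass the test (-0.50 ± 0.28 with adjusted p = 0.138, edgeR), nor did its newborn step (-0.22 ± 0.28, adjusted p = 0.515). Against newborn neurons Grik2 was lower in upper-layer (-1.24 ± 0.29, edgeR adjusted p = 0.00197) and deep-layer neurons (-0.82 ± 0.28, adjusted p = 0.0208). The deep-layer call did not hold under every alternative.

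Gabrb1, a beta subunit of the GABA-A receptor, measured 141 and 92.5 CPM in i4F-Nes and 56.4 and 71.7 CPM in CTR in radial glia. It then measured 11.4 to 20.4 CPM per library in intermediate progenitors and 3.21 to 13.3 CPM in newborn neurons. Both differences passed the test, -2.33 ± 0.29 for intermediate progenitors minus radial glia and -1.66 ± 0.36 for newborn neurons minus intermediate progenitors, with edgeR adjusted p of 3.2e-06 and 0.000835. Gabra4, an alpha subunit that in the adult forebrain contributes to extrasynaptic receptors, measured 3.51 to 5.81 CPM per library in intermediate progenitors, against 31.1 and 22.3 CPM in i4F-Nes and 23.5 and 20.5 CPM in CTR in radial glia (-2.51 ± 0.26 (SE), edgeR adjusted p = 4.65e-08). The pair lie head to head on chromosome 5 of GRCm38. Gabra4 starts at 71658308 on the minus strand and Gabrb1 at 71657921 on the plus strand in RefSeq, so that the genes overlap at these starts, 387 bases apart. RefSeq also has a Gabrb1 start at 71699932, which lies 41624 bases from that of Gabra4. Whether counting used strand is not given in the sources used here, and whether the pair shares reads was not tested. In all 4 libraries both genes were lower in intermediate progenitors than in radial glia. Gabrb1 was higher again in deep-layer than in newborn neurons, at 15.1 and 25.9 CPM in i4F-Nes and 11.3 and 16.6 CPM in CTR (1.79 ± 0.34 (SE), edgeR adjusted p = 0.000255).

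Grm8, a metabotropic receptor that inhibits transmitter release, measured 1.37 to 4.11 CPM in intermediate progenitors, against 18.1 and 11.2 CPM in i4F-Nes and 12.5 and 16.8 CPM in CTR in radial glia (-2.21 ± 0.34 (SE), edgeR adjusted p = 1.36e-05). It measured 3.68 to 13.9 CPM in upper-layer and 1.84 to 9.14 CPM in deep-layer neurons, higher than the 1.08 to 3.50 CPM of newborn neurons (2.20 ± 0.35 and 1.53 ± 0.37, SE, edgeR adjusted p = 3.78e-05 and 0.00134). Gabre, the epsilon subunit of GABA-A receptors, measured at most 0.121 CPM in any library of layer neurons, against 1.97 to 3.21 CPM in radial glia. Grid1, a delta subunit gene, measured 20.5 to 30.5 CPM in radial glia, 7.26 to 13.8 CPM in intermediate progenitors and 20.1 to 30.3 CPM in newborn neurons, with calls at both steps (-1.25 ± 0.35 and 1.29 ± 0.34, SE, edgeR adjusted p = 0.00518 and 0.0033).

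**Figure D2:**
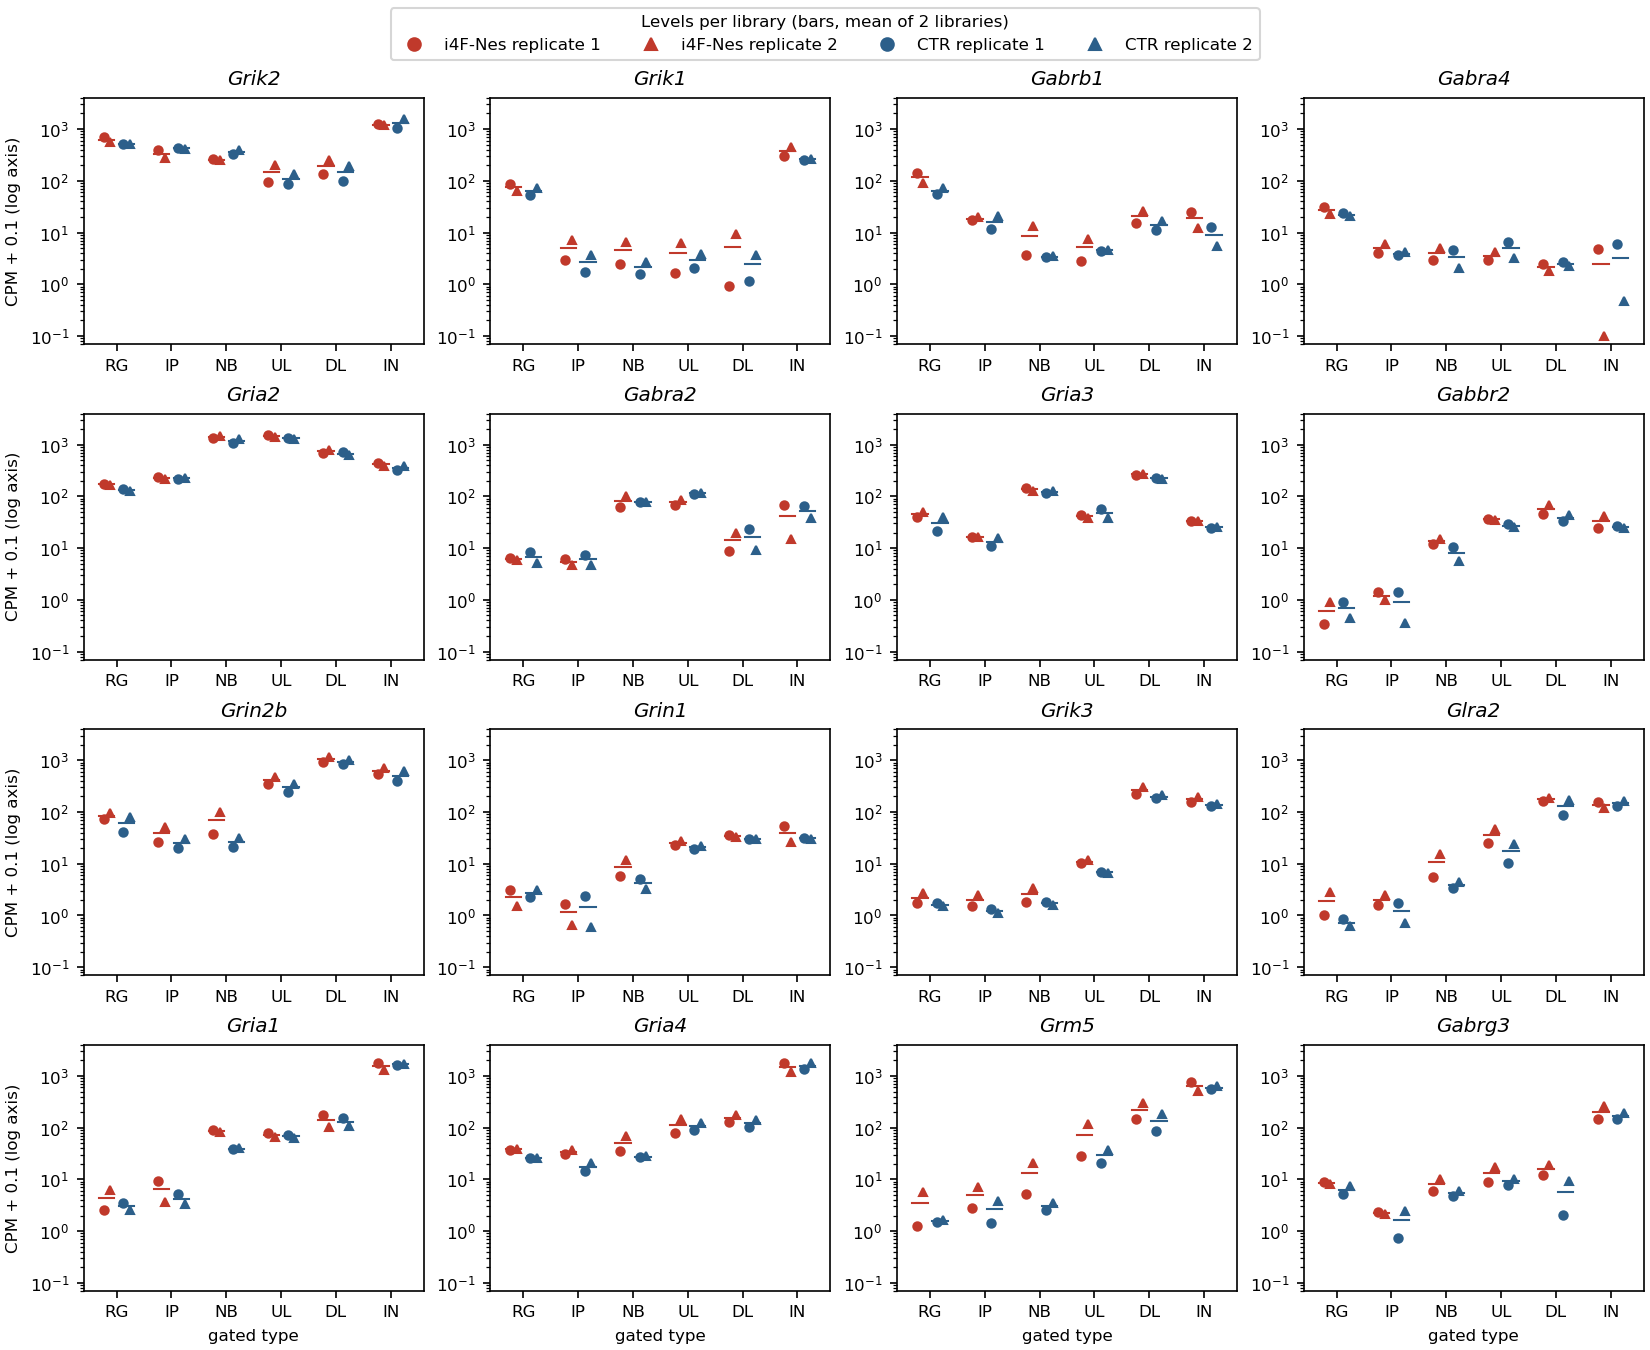
CPM plus 0.1 on a log axis for 16 subunit genes in radial glia (RG), intermediate progenitors (IP), newborn neurons (NB), upper-layer (UL) and deep-layer (DL) neurons and interneurons (IN), with circles for replicate 1, triangles for replicate 2, i4F-Nes in red to the left of CTR in blue, and bars for the mean of 2 libraries. The top row falls from radial glia to layer neurons, Gria2 and Gabra2 step up in newborn neurons, and the bottom row is highest in interneurons, with Gria1 between 1325 and 1816 CPM there.

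The genes that were already higher in intermediate progenitors than in radial glia were few. Gria2, the AMPA receptor subunit that makes the channel impermeable to calcium once its RNA is edited, measured 237 and 219 CPM in i4F-Nes and 219 and 226 CPM in CTR in intermediate progenitors, against 172 and 169 CPM in i4F-Nes and 138 and 126 CPM in CTR in radial glia. No library of radial glia reached the lowest of intermediate progenitors, and the difference was 0.65 ± 0.08 (SE), edgeR adjusted p = 1.92e-07. Gabbr1, which binds GABA in the GABA-B receptor, was another of the 6, with 59.6 to 79.6 CPM in intermediate progenitors and 38.8 to 51.4 CPM in radial glia, and so was Grin2c at a low level. In the opposite direction Gria3 was lower in intermediate progenitors (11 to 16.3 CPM) than in radial glia (21.8 to 49.6 CPM), and Grin2b was lower as well (20.5 to 51.2 CPM against 41.7 to 95.7 CPM), before both were higher in neurons. The microglia gate, whose cells should lack Gria2 and Grin2b, held 105 and 193 CPM in i4F-Nes and 28.8 and 111 CPM in CTR of Gria2. It held at most 105 CPM of Grin2b, so the radial glia levels of these genes overlapped those of the microglia gate. Whether free RNA gave the levels in that gate was not tested.

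Newborn neurons gained AMPA receptor transcripts. Gria2 measured 1365 and 1496 CPM in i4F-Nes and 1081 and 1282 CPM in CTR in newborn neurons, 2.61 ± 0.08 above intermediate progenitors (SE, edgeR adjusted p = 3.64e-17). It measured 1268 to 1562 CPM in upper-layer neurons (0.17 ± 0.08 with adjusted p = 0.0789, edgeR, against newborn neurons) and was lower in deep-layer neurons (641 to 782 CPM), with a deep-layer minus newborn difference of -0.79 ± 0.08 (SE), edgeR adjusted p = 5.08e-09. Gria1 measured 90.6 and 82.9 CPM in i4F-Nes and 38.2 and 39.7 CPM in CTR in newborn neurons and 3.25 to 9.03 CPM per library in intermediate progenitors (3.57 ± 0.32 (SE), edgeR adjusted p = 5.35e-08). Both i4F-Nes values of Gria1 in newborn neurons lay above both CTR values, a difference that DESeq2 called. The edgeR fit reported below did not call it, though some alternative edgeR fits did. Gria3 measured 147 and 127 CPM in i4F-Nes and 116 and 125 CPM in CTR in newborn neurons (3.23 ± 0.19 (SE), edgeR adjusted p = 1.41e-10), then 37.5 to 55.8 CPM in upper-layer and 219 to 272 CPM in deep-layer neurons. Relative to newborn neurons Gria3 was thus lower in upper-layer neurons (-1.49 ± 0.16) and higher in deep-layer neurons (1.01 ± 0.16), whereas Gria2 was lower in the deep-layer neurons. The summed AMPA genes measured 189 to 265 CPM per library in radial glia, 249.8 to 294 CPM in intermediate progenitors, 1263 to 1774 CPM in newborn neurons, 1489 to 1766 CPM in upper-layer and 1107 to 1337 CPM in deep-layer neurons.

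Several GABA-A and GABA-B genes were higher at the same step. Gabra2, an alpha subunit prominent in the embryonic forebrain, measured 61.5 and 102 CPM in i4F-Nes and 77.2 and 78.8 CPM in CTR in newborn neurons and 4.54 to 7.35 CPM per library in intermediate progenitors (3.84 ± 0.32 (SE), edgeR adjusted p = 2.87e-08). Upper-layer neurons held 69.4 and 83.3 CPM in i4F-Nes and 111 and 119 CPM in CTR, while deep-layer neurons held 8.70 and 19.5 CPM in i4F-Nes and 23.8 and 9.21 CPM in CTR. All 4 deep-layer values lay below all 4 newborn and all 4 upper-layer values, and the deep-layer minus newborn difference was -2.36 ± 0.27 (SE), edgeR adjusted p = 9.19e-07. The GABA-B partner Gabbr2 measured 0.236 to 0.820 CPM per library in radial glia, 5.64 to 15 CPM in newborn neurons and 45.2 and 68.9 CPM in i4F-Nes and 33.1 and 43.3 CPM in CTR in deep-layer neurons, a difference of 3.36 ± 0.29 (SE), edgeR adjusted p = 4.8e-09 at the newborn step. Gabbr1, by contrast, measured 121 and 108 CPM in i4F-Nes and 124 and 116 CPM in CTR in deep-layer neurons, against 38.8 to 51.4 CPM per library in radial glia, a layer neuron minus radial glia difference of 1.47 ± 0.07 against 6.33 ± 0.28 for Gabbr2. Transcripts of the ligand-binding subunit were thus measured in progenitors, and those of the G protein-coupling subunit were below 1 CPM in every radial glia library. The 2 genes together measured 14.4 to 40.6 CPM per library in the microglia gate, against 39.2 to 51.7 CPM in radial glia.

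The main NMDA receptor genes, Grin1 and Grin2b, were higher in layer neurons than in newborn ones. Grin1, the obligatory subunit, measured 1.45 to 2.99 CPM per library in radial glia and 3.20 to 11.7 CPM in newborn neurons. It reached 23.1 and 26.9 CPM in i4F-Nes and 19.5 and 21.7 CPM in CTR in upper-layer neurons and 35.1 and 33.1 CPM in i4F-Nes and 29.8 and 29.5 CPM in CTR in deep-layer neurons. It exceeded intermediate progenitors already in newborn neurons (2.10 ± 0.37, edgeR adjusted p = 6.74e-05) and newborn neurons again in deep-layer neurons (2.51 ± 0.22, adjusted p = 1.26e-08). The antisense gene Grin1os overlaps Grin1, and without a stated use of strand their reads cannot be told apart. Grin2b, the NMDA subunit of embryonic cortex, measured 37.0 and 102 CPM in i4F-Nes and 21.2 and 31.7 CPM in CTR in newborn neurons, 355 and 486 CPM in i4F-Nes and 245 and 356 CPM in CTR in upper-layer neurons and 944 and 1180.1 CPM in i4F-Nes and 865 and 1016 CPM in CTR in deep-layer neurons. The 3 types did not overlap, and the deep-layer minus newborn difference was 4.68 ± 0.23 (SE), edgeR adjusted p = 1.78e-11. Its newborn minus intermediate progenitor difference of 0.55 ± 0.22 (edgeR adjusted p = 0.0356) was not stable. It lost the call at a similar size without i4F-Nes replicate 1 (0.53, edgeR adjusted p = 0.147), without CTR replicate 2 (0.65, adjusted p = 0.0544), without the filter on low counts (0.56, adjusted p = 0.0548) and with thinned cells (0.59, adjusted p = 0.0684). The difference itself was smaller with stricter gates (0.18, edgeR adjusted p = 0.618), with types from clusters (0.10, adjusted p = 0.621) and with predicted doublets kept (0.02, adjusted p = 0.933). In every library intermediate progenitors held less Grin2b than radial glia. Grin2a, the subunit that becomes prominent after birth, measured 9.02 and 14.8 CPM in i4F-Nes and 8.88 and 8.08 CPM in CTR in upper-layer neurons and at most 0.681 CPM in any deep-layer library (3.04 ± 0.36 (SE), edgeR adjusted p = 7.09e-07 for upper-layer minus newborn). All 4 upper-layer values of Grin2a lay above all 4 deep-layer values, the reverse of Grin2b, though the layers were each tested against newborn neurons and not against each other.

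Some kainate, glycine and metabotropic receptor genes were higher in deep-layer neurons, which are born before those of the upper layers, than in newborn neurons. Grik3, a kainate subunit, measured 1.52 to 3.27 CPM per library in newborn neurons, 6.56 to 11.7 CPM in upper-layer neurons and 225 and 307 CPM in i4F-Nes and 186 and 212 CPM in CTR in deep-layer neurons. Its deep-layer minus newborn difference of 6.94 ± 0.10 (SE), edgeR adjusted p = 2.15e-24 was larger than that of any other subunit gene. Glra2, the glycine receptor alpha subunit of the embryo, measured 3.30 to 15.7 CPM per library in newborn neurons, 25.1 and 46.6 CPM in i4F-Nes and 10.4 and 24.5 CPM in CTR in upper-layer neurons and 160.2 and 189.6 CPM in i4F-Nes and 88.7 and 169 CPM in CTR in deep-layer neurons. Its deep-layer minus newborn difference was 4.66 ± 0.29 (SE), edgeR adjusted p = 5.09e-10. Interneurons were also high, with 4-library means of 156 CPM for Grik3 and 142 CPM for Glra2, against 233 and 152 CPM in deep-layer neurons. The library ranges of the 2 types overlapped for both genes. On the log2 scale, interneurons exceeded the mean of upper- and deep-layer neurons in both (1.59 ± 0.07 and 1.12 ± 0.23, SE, edgeR adjusted p = 3.4e-15 and 0.000686). That mean takes in the low upper-layer levels and does not place interneurons above deep-layer neurons. Glrb, the beta subunit that ties glycine receptors to gephyrin, measured 29.6 and 36.5 CPM in i4F-Nes and 27.3 and 30.9 CPM in CTR in deep-layer neurons, against 19.4 to 23.5 CPM in radial glia, a smaller difference (0.75 ± 0.08 for layer neurons minus radial glia, edgeR adjusted p = 8.44e-09) than the 5.93 ± 0.40 of Glra2. Grik5, an auxiliary kainate subunit, measured 79.2 and 64.3 CPM in i4F-Nes and 81.1 and 57.2 CPM in CTR in deep-layer neurons, against 38.2 to 49.8 CPM in radial glia (0.85 ± 0.06 for layer neurons minus radial glia).

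Metabotropic genes followed the deep-layer pattern with large differences between libraries. Grm5, which couples to phospholipase C, measured 2.44 to 21.0 CPM per library in newborn neurons, 28.1 and 116 CPM in i4F-Nes and 20.7 and 37.7 CPM in CTR in upper-layer neurons and 149 and 294 CPM in i4F-Nes and 88.0 and 183 CPM in CTR in deep-layer neurons. The deep-layer minus newborn difference was 4.83 ± 0.39 (SE), edgeR adjusted p = 2.06e-08. Grm3, which lowers cyclic AMP, measured 68.4 and 229 CPM in i4F-Nes and 24.2 and 131 CPM in CTR in deep-layer neurons and 0.452 to 3.50 CPM per library in newborn neurons (6.18 ± 0.15 (SE), edgeR adjusted p = 6.4e-20). Replicate 2 of each group held several times the Grm3 of replicate 1, in deep-layer neurons, upper-layer neurons and interneurons alike, so the levels of its 2 genotypes overlapped while the step between types was seen in every library. Grm7, an inhibitory presynaptic receptor, measured 26.4 and 83.2 CPM in i4F-Nes and 19.8 and 42.9 CPM in CTR in interneurons. In deep-layer neurons it measured 6.76 to 17.9 CPM per library (1.18 ± 0.30 (SE), edgeR adjusted p = 0.0028 against newborn neurons). Grm2 was higher in the upper layers instead, with 2.72 to 5.31 CPM per library there and at most 0.647 CPM in deep-layer libraries (2.38 ± 0.27 (SE), edgeR adjusted p = 1.06e-07 for upper-layer minus newborn).

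Among the remaining GABA-A genes, Gabrb2 measured 90.7 and 181 CPM in i4F-Nes and 57.3 and 104 CPM in CTR in deep-layer neurons, against 8.90 to 20.9 CPM per library in newborn neurons (3.12 ± 0.12 (SE), edgeR adjusted p = 1.19e-15 for deep-layer minus newborn). Gabra3, an alpha subunit of the developing brain, measured 28.9 and 41.3 CPM in i4F-Nes and 17.8 and 30.3 CPM in CTR in deep-layer neurons (4.23 ± 0.19 (SE), edgeR adjusted p = 3.21e-15). The hippocampal subunit Gabra5 was at 5.46 to 11.7 CPM in deep-layer neurons. Gabrd, the extrasynaptic delta subunit, had 303 UMIs in all and averaged 3.55 CPM in deep-layer neurons, where every library was highest. At low levels Gabra3 measured 2.27 to 4.02 CPM per library in radial glia, 1.21 to 1.81 CPM in intermediate progenitors and 0.542 to 4.40 CPM in newborn neurons. The alpha genes therefore differed between types. Gabra4 was highest in radial glia, the main step up of Gabra2 was at newborn neurons and those of Gabra3 and Gabra5 at layer neurons.

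GABA-A genes sit in clusters, and in those on chromosomes 5 and X some neighbours differed in their pattern over the cell types. On chromosome 5 (GRCm38, 70751047 to 72149037) lie Gabrg1, Gabra2, Gabra4 and Gabrb1. The adjoining pair Gabra4 and Gabrb1 were both highest in radial glia and Gabra2 in upper-layer neurons, while Gabrg1 had 114 UMIs in all. On chromosome X (GRCm38, 72255999 to 72656848), Gabre was lower and Gabra3 higher in layer neurons than in radial glia (-5.41 ± 0.46 and 2.32 ± 0.19).

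Interneurons, the GABA-producing cells that migrate into the cortex from the ganglionic eminences, differed from the mean of upper- and deep-layer neurons in 24 of the 41 tested genes, 19 higher and 5 lower, where 22.6% and 25% of all genes were. Gria4 measured 1772 and 1203 CPM in i4F-Nes and 1384 and 1790.5 CPM in CTR in interneurons and 102 to 178 CPM per library in deep-layer neurons (3.50 ± 0.19 (SE), edgeR adjusted p = 1.96e-10). Gria1 measured 1816 and 1325 CPM in i4F-Nes and 1598 and 1738 CPM in CTR in interneurons (3.87 ± 0.20 (SE), edgeR adjusted p = 1.28e-10). For both AMPA genes the lowest interneuron library was several-fold above the highest library of the other 5 types, whereas Gria2 was lower in interneurons, at 323 to 448 CPM (-1.58 ± 0.08 (SE), edgeR adjusted p = 1.85e-14), and so was Gria3 (24.6 to 34.1 CPM, -2.08 ± 0.21).

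The kainate genes that were high in radial glia were high in interneurons too. Grik2 measured 1265 and 1179 CPM in i4F-Nes and 1049 and 1531 CPM in CTR there (2.88 ± 0.24 (SE), edgeR adjusted p = 5e-08) and Grik1 295 and 453 CPM in i4F-Nes and 255 and 266 CPM in CTR (6.42 ± 0.31 (SE), edgeR adjusted p = 4.53e-11). Grm5 measured 762 and 519 CPM in i4F-Nes and 548 and 636 CPM in CTR and Grm3 91.7 and 315 CPM in i4F-Nes and 26.5 and 99.7 CPM in CTR in interneurons, with both replicate 2 libraries highest for Grm3 as in deep-layer neurons. Gabrg3, a gamma subunit, measured 145 and 262 CPM in i4F-Nes and 149 and 188 CPM in CTR in interneurons and 1.93 to 18.9 CPM in deep-layer neurons (3.99 ± 0.23 (SE), edgeR adjusted p = 2.54e-10). Grid1 was high there too, at 181 and 155 CPM in i4F-Nes and 123 and 136 CPM in CTR. Grin3a, a glycine-binding NMDA subunit, measured 22.5 and 61.4 CPM in i4F-Nes and 8.68 and 17.3 CPM in CTR (4.46 ± 0.32 (SE), edgeR adjusted p = 4.28e-11), and Grin2d, the NMDA subunit of adult interneurons, 8.55 and 2.73 CPM in i4F-Nes and 10.6 and 12.7 CPM in CTR with at most 1.15 CPM in any library of the other 5 types (3.09 ± 0.26 (SE), edgeR adjusted p = 7.56e-10). Grm4, a presynaptic inhibitory receptor, measured 11.7 and 5.45 CPM in i4F-Nes and 8.68 and 9.58 CPM in CTR in interneurons, on 15 and 4 UMIs in i4F-Nes and 18 and 25 UMIs in CTR. Of the 24 calls 20 held under every alternative run, and the exceptions were Gabbr1, Gabbr2, Gabre and Glrb.

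Among the 19 genes that never averaged 10 CPM were Gabra5, Gabra6, Gabrd, Gabre, Gabrg1, Gabrr1, Gabrr2, Gabrr3, Glra1, Glra3, Glra4, Grik4, Grin2c, Grin2d, Grin3b, Grm2, Grm4 and Grm6. Their highest type means ran between 0 CPM for Gabra6 and 8.84 CPM for Grm4. Of the retinal genes, Grm6, Gabrr1 and Gabrr3 were nearly absent, with 4, 7 and 8 UMIs among all kept cells, whereas the rho gene Gabrr2 had 212. The spinal glycine receptor genes Glra1, Glra3 and Glra4 had 77, 30 and 25 UMIs. Grik4, an auxiliary kainate subunit, was an exception to the neuronal trend, with 1.31 to 5.64 CPM per library in newborn neurons, against 4.00 to 9.46 CPM in intermediate progenitors (-1.70 ± 0.40 (SE), edgeR adjusted p = 0.00119). Grin2c, the cerebellar NMDA subunit, was also lower in newborn neurons, at most 0.0468 CPM, than in intermediate progenitors, at 0.907 to 1.72 CPM.

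Shares of cells with a UMI showed how widely each transcript was spread. To remove the differences in depth between types, each cell was thinned to 3000 UMIs, which left 399 to 1620 cells per library in each of the 5 types from radial glia to deep-layer neuron. Before thinning the median depth per library was 9061 to 17236 UMIs in those types and 2214 to 6432 UMIs in the microglia gate. Gria2 was detected in 92.0% and 92.2% of cells in i4F-Nes and 88.8% and 92.8% in CTR of newborn neurons and in 35.2% and 36.9% of cells in i4F-Nes and 30.6% and 27.3% in CTR of radial glia. Without thinning these ranges were 95.9% to 99.6% and 62.4% to 70.6%. In the microglia gate, which should lack the gene and holds 14 to 25 such cells per library, 6.67% to 21.4% of cells had a Gria2 UMI after thinning. Whether free RNA gave those UMIs was not tested. These microglia shares are imprecise, since the exact 95% Clopper-Pearson interval of 3 cells in 14 runs from 4.66% to 50.8% and covers counting error only. Grik2 was detected in 56.6% to 64.6% of radial glia, 41.8% to 53.5% of newborn and 18.4% to 30.9% of upper-layer neurons, against 0% to 21.4% of microglia. Grin2b was found in 4.99% to 16.8% of newborn, 40.5% to 59.5% of upper-layer and 83.1% to 90.1% of deep-layer neurons, and in 0% to 14.3% of microglia, so its newborn share overlapped that of microglia. Grik3 reached 1.78% to 3.34% of upper-layer and 35.8% to 51.9% of deep-layer neurons, against 0% to 7.14% of microglia. Gabrb1 was found in 11% to 22.2% of radial glia and in 0 microglia, which allows up to 12% to 21.4% per library, Gabra4 in 5.15% to 7.72% of radial glia and in 0 microglia, and Gabra2 in 11.5% to 18.8% of newborn neurons and 0% to 4.00% of microglia.

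The genes of proteins that work with these receptors were followed along the same steps. Of 37 glutamate receptor partner genes, 31 were higher and 5 lower in layer neurons than in radial glia, against 42.8% and 39.5% of all genes. Of 11 GABA and glycine receptor partners 10 were higher and 1 lower, and of 16 tested genes of transmitter synthesis, transport and chloride carriage 6 were higher and 5 lower, in both directions a smaller share than among all genes. The 3 largest gains were those of Shisa6 (6.05 ± 0.34), an AMPA receptor auxiliary subunit, Slc1a1 (5.99 ± 0.22), the neuronal glutamate transporter, and Slc17a7 (5.68 ± 0.24), which loads glutamate into vesicles. The 3 largest losses were those of Kctd12b, a relative of the auxiliary GABA-B subunit Kctd12 (-4.72 ± 0.64), Cacng5, an AMPA receptor auxiliary subunit (-4.68 ± 0.36), and Camk2a (-3.87 ± 0.21), a kinase of the postsynaptic density that is known chiefly from mature neurons.

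Step by step, intermediate progenitors minus radial glia had 14 of the 37 glutamate receptor partners higher and 11 lower, near the 30.7% and 31.2% of all genes. Here Slc17a6 (6.69 ± 0.45), another vesicular glutamate transporter, Slc17a7 (2.90 ± 0.34) and Shisa6 (2.53 ± 0.49) were higher. Lower were Camk2a (-4.42 ± 0.30) and the glial transporters Slc1a3 (-2.66 ± 0.32) for glutamate and Slc6a11 (-2.27 ± 0.29) for GABA. At the newborn step 22 of the 37 were higher and 5 lower, against 30.7% and 31.1% of all genes. Cacng2, which carries AMPA receptors to the membrane, was higher by 4.00 ± 0.29 (edgeR adjusted p = 3.28e-10), together with the scaffold genes Shank1 and Dlg2 (2.92 ± 0.20 and 2.92 ± 0.21), while Cacng5 (-5.51 ± 0.36), the secreted AMPA receptor binder Nptx2 (-3.79 ± 0.42) and Slc12a5 (-2.71 ± 0.60), the chloride exporter whose later rise makes GABA inhibitory, were lower. In upper-layer minus newborn neurons Camk2b (3.68 ± 0.12), Cacng3 (3.09 ± 0.67) and Kctd8 (2.53 ± 0.40), a GABA-B auxiliary subunit, were higher, and Kctd12b (-4.04 ± 0.73), Slc17a6 (-2.25 ± 0.28) and Slc1a2 (-1.24 ± 0.29) lower. In deep-layer minus newborn neurons Kctd8 (5.48 ± 0.34), the AMPA receptor auxiliary gene Gsg1l (5.46 ± 0.23) and Kctd12 (5.02 ± 0.19) were higher, and Slc17a6 (-6.61 ± 0.38) and Kctd12b (-4.60 ± 0.79) lower. Interneurons differed from layer neurons by the genes of GABA synthesis and vesicle loading, Slc32a1 (9.58 ± 0.21), Gad1 (8.07 ± 0.21) and Gad2 (8.06 ± 0.21), and were lower in Slc17a7 (-4.08 ± 0.33), Camk2b (-3.15 ± 0.16) and the AMPA receptor auxiliary gene Cnih3 (-2.84 ± 0.29).

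Turning to genotype, i4F-Nes was compared with CTR first over all kept cells, where the level of a gene in the cells and the share of cells that carry it cannot be told apart. 44 of the 50 genes passed the filter, and 1 was called, in a comparison where 2.28% of 18547 genes were. Grm4 measured 4.38 and 3.03 CPM in i4F-Nes and 0.310 and 0.441 CPM in CTR, on 562 and 238 UMIs in i4F-Nes and 30 and 36 UMIs in CTR. Both i4F-Nes libraries lay above both CTR libraries, with a difference of 3.21 ± 0.36 (SE), edgeR adjusted p = 0.023. Leaving out i4F-Nes replicate 2 or CTR replicate 2 added Grin3b to the called genes, with edgeR adjusted p of 0.0251 and 0.0126. DESeq2 called 3 (Grm4, Grin3b and Grik4), where it called 6.18% of all genes. An unadjusted edgeR p under 0.05 was reached by 12.5% of all genes and by 5 subunit genes, namely Grm4, Grin3b, Grik4, Gabrb1 and Grik2. Grin3b, a glycine-binding NMDA subunit, measured 1.38 and 0.866 CPM in i4F-Nes and 0.103 and 0.220 CPM in CTR and missed the threshold (2.71 ± 0.51 (SE), edgeR adjusted p = 0.0775). It overlaps Tmem259 on the other strand, so its reads are uncertain without a stated use of strand.

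The Grm4 transcripts of i4F-Nes came from cells that CTR nearly lacked. A gate on Crip1, Cytl1, S100a11 and similar genes, drawn from genes known from earlier results to lead such cells, held 504 and 445 cells in i4F-Nes and 15 and 11 in CTR, and a gate on Krt8, Crabp2 and Ebf genes held 278 and 334 cells in i4F-Nes and 0 in either CTR library, which allows shares of up to 0.0496% and 0.0448% there. These gates were not tested, since their cells were chosen for that difference. In the Crip1 gate Grm4 measured 25.7 and 16.3 CPM in i4F-Nes, from 492 and 203 UMIs, which are 87.5% and 85.3% of the Grm4 UMIs of those libraries. No Grm4 UMI occurred in the CTR cells of the gate. In the Krt8 gate Grin3b measured 20.3 and 10.3 CPM, 76.3% and 80.9% of the Grin3b UMIs of the i4F-Nes libraries, and at most 0.821 CPM in the 6 types of any library. Without the cells of both gates the Grm4 difference over the remaining cells was 0.43 with an edgeR adjusted p of 1, and no subunit gene was called. With every cell thinned to 3000 UMIs the Grm4 difference was 1.13 (adjusted p = 0.521).

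Other subunit genes also had their own levels in these cells. Gria4 measured 201 and 124 CPM in the i4F-Nes cells of the Crip1 gate and 478 and 603 CPM in the Krt8 gate, against 25.7 to 39.4 CPM per library in radial glia. Between them the gates held 22.9% and 18.9% of the Gria4 UMIs in i4F-Nes replicate 1 and 12.2% and 25.6% in replicate 2, with the Crip1 gate first. Gria2 and Grik2 were low in the Crip1 gate, at 18.1 and 23.1 CPM and 59.2 and 63.8 CPM in i4F-Nes. The 15 and 11 CTR cells of that gate instead held 518 and 352 CPM of Grik2 and 56.8 and 75.8 CPM of Grik1, close to the levels of radial glia, while the i4F-Nes cells held 8.41 and 6.59 CPM of Grik1. In the Krt8 gate Gabra2 measured 58.2 and 67.7 CPM, and Gabbr1 107 and 104 CPM, while Gabra4 stayed at 0.753 and 1.31 CPM. The gate cells were deep, with median UMIs of 33832 and 25343 in the Crip1 gate and 22464.5 and 16338 in the Krt8 gate.

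**Figure D3:**
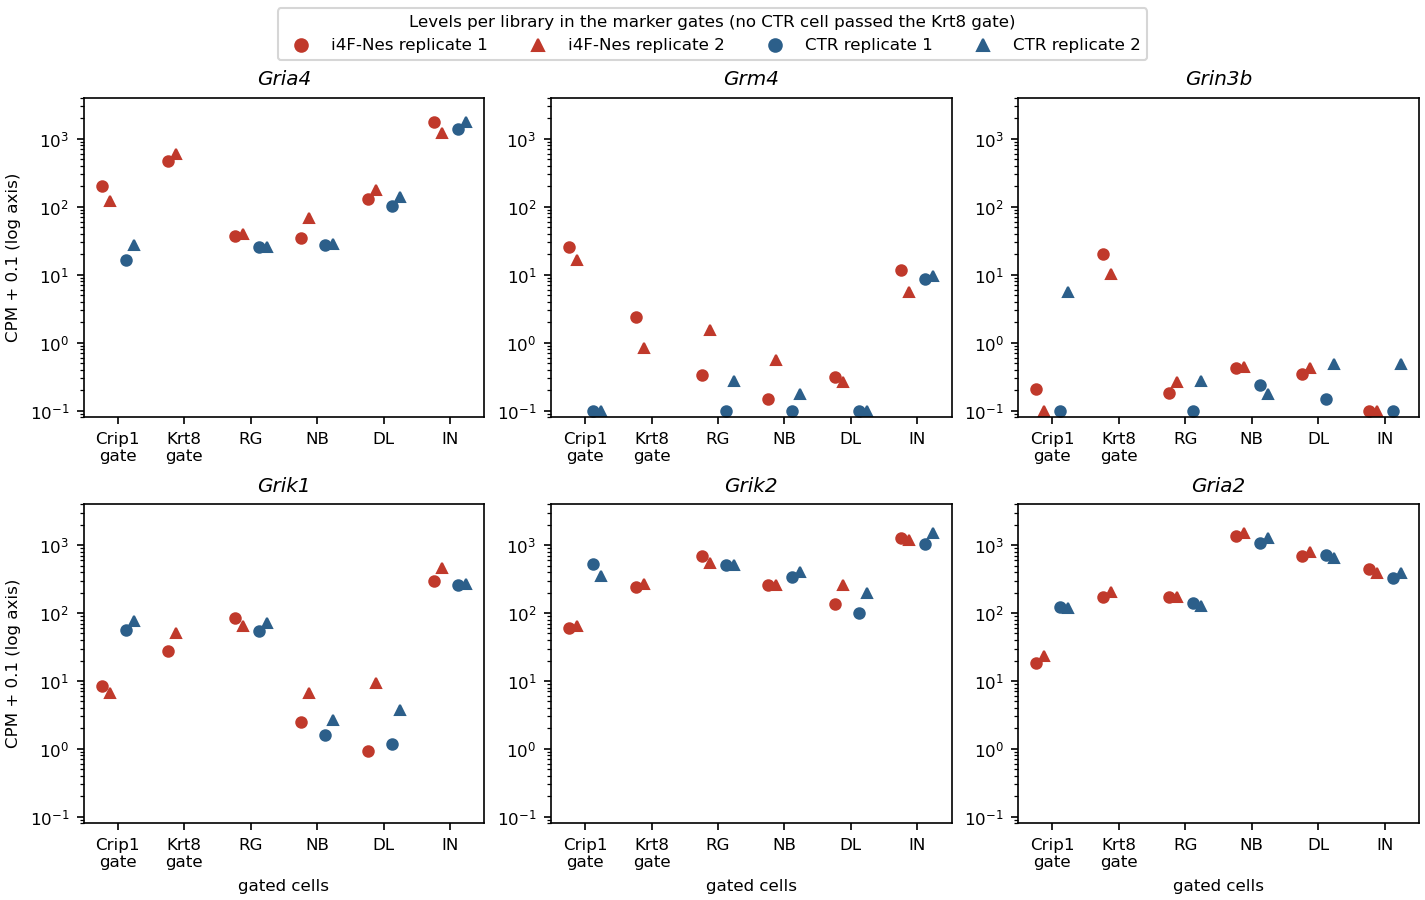
CPM plus 0.1 on a log axis for 6 subunit genes in the Crip1 gate and the Krt8 gate, radial glia (RG), newborn neurons (NB), deep-layer neurons (DL) and interneurons (IN), with i4F-Nes in red to the left of CTR in blue, circles for replicate 1 and triangles for replicate 2. Grm4 is high in the i4F-Nes cells of the Crip1 gate, Grin3b in the Krt8 gate and Gria4 in both, and the CTR points of the Crip1 gate rest on 15 and 11 cells.

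Within types, no subunit gene was called between i4F-Nes and CTR in any of the 6 types by edgeR, fitted to 2 against 2 libraries with no term for the replicate number. Tested genes numbered 26 of the 50 in radial glia, 35 in intermediate progenitors, 34 in newborn neurons, 37 in upper-layer and 37 in deep-layer neurons and 35 in interneurons, and of all genes 0%, 0.00757%, 0%, 0%, 0% and 0% were called in that order. At an unadjusted p under 0.05 there were 5, 1, 7, 3, 1 and 1 subunit genes in that order, against 4.48%, 2.04%, 3.07%, 1.26%, 1.22% and 2.1% of all genes. DESeq2 called 2 subunit genes, Gria1 and Grm5, both in newborn neurons, where it called 0.239% of all genes. In the other types it called none of them and, in the order above, 0.134%, 0.0303%, 0.0144%, 0.0562% and 0% of all genes. Gria1 in newborn neurons was the closest, at 90.6 and 82.9 CPM in i4F-Nes and 38.2 and 39.7 CPM in CTR. Its difference was 1.11 ± 0.12 (SE), edgeR adjusted p = 0.431. Gria4 in intermediate progenitors measured 31.0 and 37.2 CPM in i4F-Nes and 14.3 and 20.5 CPM in CTR (0.96 ± 0.24 (SE), edgeR adjusted p = 1). In the other direction Grik2 in newborn neurons measured 259.5 and 254 CPM in i4F-Nes and 334 and 395 CPM in CTR (-0.55 ± 0.14 (SE), edgeR adjusted p = 0.994) and Gabra2 in upper-layer neurons 69.4 and 83.3 CPM in i4F-Nes and 111 and 119 CPM in CTR (-0.61 ± 0.16 (SE), edgeR adjusted p = 1). In these 4 cases the libraries of the genotypes did not overlap, but with 2 against 2 libraries this also occurs without a difference. How often it occurred over all tested genes was not determined. None of the 4 passed the adjusted threshold in the edgeR fit above. With a block for the replicate number all 4 passed it. The edgeR adjusted p were then 0.000151 for Gria1, 5.48e-07 for Gria4, 0.0167 for Grik2 and 0.00028 for Gabra2. Gria1, Gria4 and Grik2 also passed it without the filter on low counts. Counts changed with the replicate block and when 1 library was left out. With the block, 15 of 37 subunit genes were called higher and 0 lower in deep-layer neurons, against 2.81% and 0.934% of all genes. In upper-layer neurons 12 of 37 were higher and 1 lower, against 1.91% and 0.757%. The labels do not state that replicate numbers pair the libraries. Without i4F-Nes replicate 1, 6 of 37 subunit genes tested were called higher in newborn neurons (Gabrb1, Glra2, Gria1, Gria4, Grin2b and Grm5), against 0.425% of all genes, and 2 of 33 in intermediate progenitors (Gria4 and Grin2b), against 1.76%. Without i4F-Nes replicate 2, Gabrb1 of 32 genes was called higher in radial glia, against 0.0492% of all genes. Without CTR replicate 2, 4 of 33 were called higher in radial glia (among them Gabrb1, Gria3 and Grin2b), 2 of 38 in newborn neurons (Gria1 and Grm7) and 1 of 35 in intermediate progenitors (Gria4), against 0.567%, 0.315% and 0.386% of all genes in that order. A fit with 1 library in a group assumes that the lone library varies like the others.

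Most subunit genes had a positive i4F-Nes minus CTR difference in each type, as did other long genes. Positive differences numbered 23 of 26 in radial glia, 28 of 35 in intermediate progenitors, 31 of 34 in newborn neurons, 31 of 37 in upper-layer neurons, 33 of 37 in deep-layer neurons and 26 of 35 in interneurons. Median differences in that order were 0.41, 0.29, 0.57, 0.42, 0.38 and 0.34, whereas over all genes they lay between -0.01 and 0.00. Of the 50 genes, 28 span at least 100 kb in GENCODE M21. Among other tested genes of at least 100 kb the share with a positive difference was 83.2%, 76.2%, 79.8%, 70.9%, 78.0% and 72.1% in the same order, with medians between 0.09 and 0.19. The part of gene length in the subunit genes' shift was not tested, and whether intronic reads were counted is not given in the sources used here. Over all kept cells the lean was smaller, with 25 of 44 subunit genes positive and a median of 0.09.

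**Figure D4:**
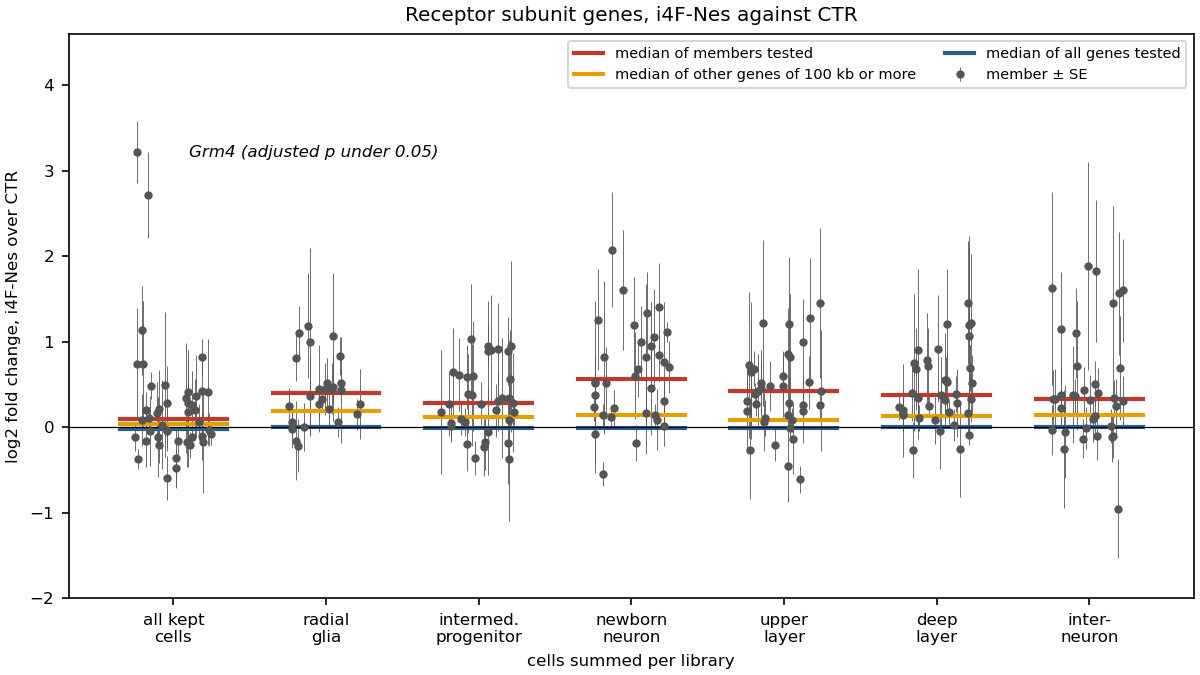
Log2 fold change of i4F-Nes over CTR with its standard error for each subunit gene tested over all kept cells and within the 6 types, with lines for the median of the subunit genes (red), of the other genes of 100 kb or more (orange) and of all genes tested (blue). Grm4 over all kept cells, at 3.21, is the point past the threshold, and within types the red line lies above the orange and blue lines.

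The rise of subunit genes from radial glia to layer neurons was not found to differ between genotypes. In the test of that difference none of the 41 subunit genes was called by edgeR or DESeq2, nor was any of 16041 genes by edgeR (0%), with 863 genes (5.38%), 1 of them a subunit gene, at an unadjusted p under 0.05. DESeq2 called 0.0374% of all genes. Without CTR replicate 2 Gria3 was called lower in this test (-1.13, edgeR adjusted p = 0.0138), as were 0.108% of all genes. Per library, the step was also taken on log2 of CPM plus 1, with the mean CPM of upper- and deep-layer neurons against radial glia. By this other measure the Gria2 step was 2.71 and 2.68 in i4F-Nes and 2.90 and 2.91 in CTR. The Grin2b step was 3.16 and 3.11 in i4F-Nes and 3.70 and 3.099 in CTR, and that of Grik2 was -2.59 and -1.26 in i4F-Nes and -2.43 and -1.61 in CTR. The onset of the major genes was thus seen in every library of both genotypes, and 2 libraries a group leave small differences undetectable. No partner gene was called between genotypes by edgeR in any of these fits. Over all kept cells, an unadjusted edgeR p under 0.05 was reached by 12.5% of all genes. It was reached by 7 of 37 glutamate receptor partners, 1 of 11 GABA and glycine receptor partners and 6 of 16 genes of synthesis, transport and chloride carriage.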

How the data were processed

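Rostral neocortex of E15.5 embryos was sectioned, dissociated with papain and run on 10x 3′ v3.1, per the labels' protocols. The deposited matrices hold UMI counts per gene and barcode from cellranger 7.0.1, per the file headers, with mm10 as build, per the submitters' processing notes. On strand use, intron counting, ambient RNA removal and annotation release the sources used here are silent. The subunit genes and all marker and partner lists were chosen with earlier results of these data known.

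Cells with at least 1000 UMIs, 500 genes and at most 10% mitochondrial UMIs were kept. Of these, the cells with the highest Scrublet scores were removed as doublets, up to an expected 0.8% per 1000 barcodes (2031 cells, scanpy 1.11.5). Scrublet's automatic threshold called 1216. Rare types needed 4 detected markers. The other types took the highest mean z-score of markers, with 3 detected markers and a lead of at least 0.1. 6074 of 20947 cells assigned this way led by under 0.4. Counts were summed per library and type and tested with edgeR 4.0.16 (TMM, filterByExpr, quasi-likelihood), with the library as a block between types, and 2 against 2 libraries between genotypes, with adjusted p from Benjamini-Hochberg. DESeq2 1.42.0, no filter, other cell selections, thinning to 3000 UMIs, 30 Leiden clusters (28 named) and leaving out each library were alternatives. Values of every library are given for subunit genes that average at least 10 CPM in a type. Subunit genes past the threshold between genotypes are named, and of the partner genes the 3 past the threshold with the largest difference in each direction. A few of these genes are not reported here. Lengths come from GENCODE M21. Simulated data with 200 genes changed by a fold of 2 were run through the same tests. The layer neuron minus radial glia test recovered 100% of the changed genes and the test over all kept cells 72.2%. The radial glia genotype test recovered 61.5% and the test of the difference of the steps 59.5%. The simulation gave all genes the same fixed spread, set no library differences other than depth and changed only genes above a minimum expected count. These shares hold for that setting and may overstate recovery in the real libraries. Repeated molecules within a cell are collapsed by UMI, so intervals cover counting error only.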

Additional observations from a re-analysis of the deposited data

How the results depend on the processing

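Of the counts of called subunit genes recomputed under the alternatives, 283 lay within 1.5 times the reported count and 35 did not, and of the values of single genes 5695 kept direction and call, 131 became called, 96 lost the call and 2 changed direction. The cause was not tested in any of these cases. Between types, 10 genes (reported 6) were higher in intermediate progenitors than in radial glia without i4F-Nes replicate 2. With cells thinned to 3000 UMIs, 2 (reported 4) were lower in newborn neurons, 2 (reported 4) in deep-layer neurons, 5 (reported 8) in layer neurons against radial glia and 3 (reported 5) in interneurons, and 3 were lower in interneurons with types from clusters. Gabrb2 in interneurons minus layer neurons turned to 0.41 with clusters (edgeR adjusted p = 0.0375), and Grik3 in newborn neurons minus intermediate progenitors to -0.88 with doublets kept (adjusted p = 0.00133). Over all kept cells (reported 1), 3 genes were higher by DESeq2, 2 without the filter, 1 to 2 when a library was left out, and 0 with thinning or without both i4F-Nes gates. Within types (reported 0), the filter-free test called 2 genes higher in radial glia, 1 in intermediate progenitors and 5 in newborn neurons (with 1 lower). It called 5 in upper-layer neurons and 1 in interneurons, and DESeq2 called 2 in newborn neurons. Shares of all genes are not given here for the filter-free fits or for the changed counts between types, so those counts lack a background. Leaving out a library gave 0 to 4 in radial glia, 0 to 2 in intermediate progenitors, 0 to 6 in newborn neurons, and 0 to 1 lower in the difference of steps.

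Replicate numbers are not stated to pair the libraries. Deviations of same-numbered libraries from their group means correlated at 0.305, from 2 pairs only. With the replicate block, 4 genes were higher and 1 lower over all kept cells (6.04% and 1.59% of all genes), 0 in radial glia, 2 higher in intermediate progenitors (1.86%), 2 higher and 1 lower in newborn neurons (1.19% and 0.477%), 12 higher and 1 lower in upper-layer neurons (1.91% and 0.757%), 15 higher in deep-layer neurons (2.81%) and 1 higher in interneurons (0.0187%). Of the subunit genes tested, the 15 and the 12 are 40.5% and 32.4%, so the absence of calls in those types did not hold under the block. Depth limits the 19 genes under 10 CPM and interneurons of i4F-Nes replicate 2, which rest on 83 cells.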
